A study of Mus musculus with 196 samples.

Results

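Retinoic acid (RA) was added to BMP2 in cultures of mouse primordial germ cell-like cells (PGCLCs, germ cell precursors made from embryonic stem cells) that carry no intact Zglp1, and the transcripts of these cells were compared with those of the same clones given BMP2 alone. The libraries were chosen by their labels: treatment B2RA (BMP2 with RA) against treatment BMP2, in knockout clones E5 and G10, on culture days 4, 5, 7 and 9, with replicates 1 and 2. This gave 32 libraries of the 194 that could be matched to a label, 16 with B2RA and 16 with BMP2. Both clones have the genotype Prdm1-mVenus Tg/0, Dppa3-ECFP Tg/0, Zglp1-/- on a 129S1 and C57BL/6 background in equal parts. H18, the parental clone, has both reporters on the same background without the Zglp1 mutation, and its 12 B2RA and BMP2 libraries of days 5, 7 and 9 served as the comparison. The 16 control libraries of the knockout clones give the level without either agent. Per the labels, PGCLCs sorted by the Prdm1 reporter were grown on m220 feeder cells, which carry membrane-bound stem cell factor, and sorted again by the Dppa3 reporter before RNA was taken. Each clone is a separate line, the deleted stretch of Zglp1 and the doses of the agents are not given in the sources used here, and the origin of replicates 1 and 2 is not stated. P-values therefore measure the spread between libraries, which may be technical, and hold no spread between clones.

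RA is made from retinol, carried by cellular binding proteins and bound by nuclear receptors that switch on genes with RA response elements, among them the enzymes that destroy it. In fetal ovaries RA induces Stra8, a factor needed for entry into meiosis. BMP signals act through SMAD proteins, and ZGLP1 is a GATA-type zinc-finger protein that acts downstream of BMP in the oogenic programme of mouse germ cells. Libraries of clones without it address which part of the response to RA beside BMP2 does not need ZGLP1.

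Promoter windows are shown because the genes that rose with B2RA at every day included Cyp26a1, which encodes the cytochrome P450 that breaks down RA, and Rarb, which encodes an RA receptor. Each window runs from 250 bases before to 50 bases after a RefSeq transcript start (GRCm38.p6). Direct repeats of the unit AGGTCA or its variant AGTTCA, or of the unit GGGTCA or its variant GGTTCA, in any combination, were searched on both strands with spacers of 5, 2 or 1 base, and a match is in capitals. The Cyp26a1 window lies at chr19:37697558-37697857 on the plus strand, the Rarb window at chr14:16575427-16575726 on the minus strand, and that of Stra8 at chr6:34920698-34920997 on the plus strand.
Cyp26a1: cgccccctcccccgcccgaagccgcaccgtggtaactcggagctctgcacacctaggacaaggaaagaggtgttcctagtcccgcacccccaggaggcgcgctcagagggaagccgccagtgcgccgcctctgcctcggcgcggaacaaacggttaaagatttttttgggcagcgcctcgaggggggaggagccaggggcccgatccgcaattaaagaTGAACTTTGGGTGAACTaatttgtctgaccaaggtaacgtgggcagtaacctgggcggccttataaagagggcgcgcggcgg
Rarb: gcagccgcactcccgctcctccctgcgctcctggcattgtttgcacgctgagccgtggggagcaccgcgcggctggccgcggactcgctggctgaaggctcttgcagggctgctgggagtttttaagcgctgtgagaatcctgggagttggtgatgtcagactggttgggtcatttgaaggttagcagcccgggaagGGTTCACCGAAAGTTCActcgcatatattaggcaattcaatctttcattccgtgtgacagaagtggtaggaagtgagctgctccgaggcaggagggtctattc
Stra8: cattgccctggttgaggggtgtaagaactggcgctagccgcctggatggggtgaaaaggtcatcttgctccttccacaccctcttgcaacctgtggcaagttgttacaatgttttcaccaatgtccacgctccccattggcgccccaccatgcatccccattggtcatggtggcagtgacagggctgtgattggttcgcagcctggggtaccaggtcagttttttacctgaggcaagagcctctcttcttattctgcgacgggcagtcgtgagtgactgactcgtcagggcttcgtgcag
Cyp26a1 and Rarb each held a repeat with a 5-base spacer, beginning 32 bases before the start in Cyp26a1 (on the minus strand) and 53 bases before it in Rarb. Such a repeat was in 32 of 32851 promoter windows (0.0974%), and any of the 3 spacings in 193 (0.588%). No such repeat was in the Stra8 window. Of the 11 called genes of the RA lists, 7 had a window in RefSeq and 2 of those held a repeat.

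The deposited values are RPM, read numbers of transcript 3′ ends scaled to the same total of reads on endogenous genes in each library. Tests are limma fits to log2(RPM + 1) over all PGCLC libraries, with p-values adjusted by Benjamini-Hochberg over all genes tested. A change is B2RA minus BMP2 on that log2 scale, which understates the change of low genes, averaged over the clones unless one is named, and is given ± SE. A gene was called when its adjusted p was under 0.05 and its change at least 1. Depth ran over 985914 to 5196593 reads and 11850 to 16050 detected genes per library. Of the 16 replicate pairs, the lowest correlation of log2 values was 0.80, that of the E5 B2RA pair of day 9, where replicate 2 had the fewest reads and genes of all 32. Results of day 9 that change without this library are given with and without it. Zglp1 itself had a mean of 23.7 ± 7.08 RPM with B2RA and 19.2 ± 12.0 RPM with BMP2 at day 9 (SD, n = 4 each, limma adjusted p = 0.374), and 3′ tags outside a deleted stretch would check nothing about the knockout.

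Cyp26a1 rose with B2RA at each of the 4 days, most at the first and least at the last. At day 4 it had 40.3 and 54.2 RPM in E5 and 28.7 and 65.7 RPM in G10 with B2RA, against 2.81 and 1.497 RPM in E5 and 0 and 0.359 RPM in G10 with BMP2. The lowest B2RA library stood far above the highest BMP2 library, and the change was 4.60 ± 0.44 (limma adjusted p = 3.75e-14). Control libraries averaged 3.56 ± 1.09 RPM (SD, n = 4). The change was 3.95 ± 0.44 at day 5, 3.12 ± 0.44 at day 7 and 1.43 ± 0.44 at day 9 (limma adjusted p = 0.0147). At day 9 the libraries held 19.2, 17.2, 26.3 and 14.48 RPM with B2RA (E5, then G10), against 10.7, 8.66, 2.63 and 6.30 RPM with BMP2. The groups did not overlap, but the B2RA level was lower and the BMP2 level higher than at day 4. The test of the response at day 9 minus that at day 4 gave -3.18 ± 0.62 (limma adjusted p = 0.000746). The call of day 9 was lost without E5 BMP2 replicate 2 (1.36, adjusted p = 0.0599), without G10 BMP2 replicate 1 (1.17, adjusted p = 0.0917) or without G10 B2RA replicate 1 (1.22, adjusted p = 0.0841), all by limma. Cyp26a1 is on chromosome 19 from base 37697738 to 37701536 (GRCm38).

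Rarb rose at all 4 days as well. Rarb had 16.8, 15.0, 10.8 and 24.8 RPM with B2RA at day 4 (E5, then G10), against 1.87, 3.37, 1.102 and 0.718 RPM with BMP2. At day 9 it had 16.6, 19.3, 7.85 and 12.5 RPM with B2RA, against 0.647, 0, 0 and 2.099 RPM with BMP2. No BMP2 library of any day reached the lowest B2RA library of that day, and the changes were between 2.72 ± 0.45 at day 4 and 3.52 ± 0.45 at day 7 (limma adjusted p of 2.58e-05 at day 4 and 3.63e-09 at day 7).

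**Figure D1:**
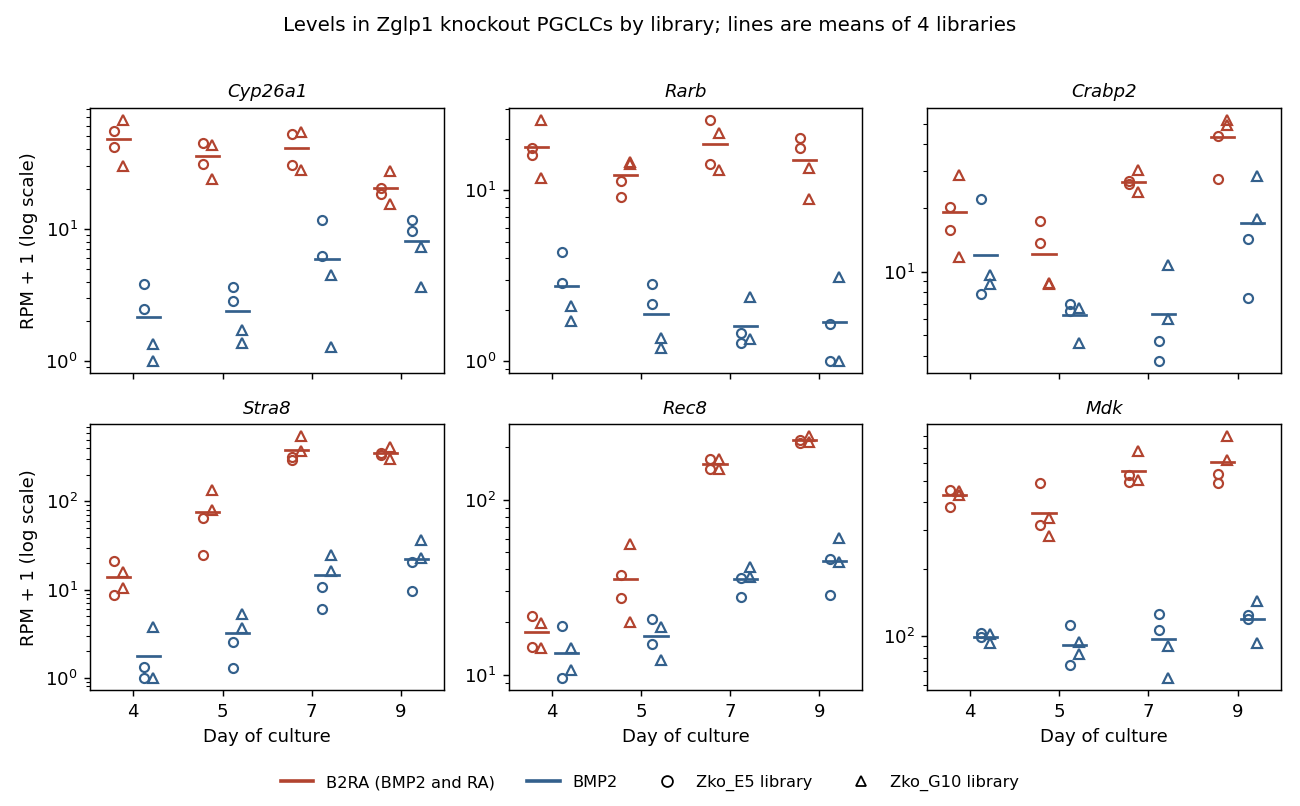
Levels of 6 genes in RPM + 1 on a log axis, against the day of culture, in each Zglp1 knockout library. Red marks are B2RA and blue marks BMP2, circles are E5 and triangles G10, and lines are means of 4 libraries. Cyp26a1 is separated at each day with a smaller gap at day 9, Rarb, Stra8 and Mdk are separated at each day, Crabp2 at days 5 and 7, and Rec8 only from day 7.

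Crabp2, Dhrs3 and Dhrs4, whose products bind or convert retinoids, were called at day 7 or day 9. Crabp2, which encodes the protein that hands RA to its receptors, had 25.8, 25.0, 22.8 and 29.1 RPM with B2RA at day 7 (E5, then G10), against 3.71, 2.77, 4.96 and 9.81 RPM with BMP2. The groups did not overlap at day 7 (2.19 ± 0.35, limma adjusted p = 2.03e-06), and the gene was called again at day 9 (1.46 ± 0.35, limma adjusted p = 0.00132), where the groups overlapped. Control libraries held 24.5 ± 7.54 RPM at day 7 (SD, n = 4), a level near that with B2RA and above that with BMP2. Dhrs3, a retinal reductase, averaged 9.89 ± 2.37 RPM with B2RA and 0.781 ± 0.554 RPM with BMP2 at day 7 (2.64 ± 0.45, limma adjusted p = 1.1e-05). Dhrs4, of the same enzyme family, fell at day 9 to 8.40 ± 3.81 RPM with B2RA, against 24.7 ± 2.50 RPM with BMP2 (-1.57, limma adjusted p = 2.65e-05). In the list of RA synthesis and supply 8 of 18 genes were tested at day 9, of which 2 rose, among them Dhrs3, and 2 fell (Dhrs4 and Rdh13). Of all 9874 genes tested at day 9, 7.3% were called, 4.52% higher and 2.79% lower. Rdh13 lost its call without E5 B2RA replicate 2 (-0.12, limma adjusted p = 0.858). The day 9 call of Dhrs3 held in 8 of 15 alternative settings and was lost without E5 B2RA replicate 1 (0.82, limma adjusted p = 0.223). In the list of receptors, binding proteins and cofactors 14 of 17 were tested, 2 rose at day 9 (Rarb and Crabp2), and none fell.

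Other known RA targets were mostly below the level tested. Of 28 in the list, 10 were tested at day 9, with 3 higher (Stra8, Rec8 and Tgm2), none lower and a median change of 0.41. Over all genes tested 4.52% were called higher and the median was 0.074. Tgm2, a transglutaminase induced by RA in many cells, averaged 45.3 ± 28.2 RPM with B2RA and 11.9 ± 2.57 RPM with BMP2 (SD, n = 4 each, change 1.69, limma adjusted p = 0.000738). None of the 39 Hox genes, classical RA targets of the embryonic axis, reached 10 RPM in 2 libraries compared at any of the 4 days, so their response could not be tested at this level.

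Stra8 rose at every day and had its highest levels at days 7 and 9. With B2RA it had 20.4 and 7.68 RPM in E5 and 14.7 and 9.34 RPM in G10 at day 4, against 0.312 and 0 RPM in E5 and 2.76 and 0 RPM in G10 with BMP2. At day 5 it had 64.0, 23.9, 135 and 78.3 RPM with B2RA (E5, then G10), against 1.58, 0.290, 4.34 and 2.69 RPM with BMP2. The lowest B2RA library was above the highest BMP2 library on both days. At day 7 the values were 291, 317, 371 and 545 RPM with B2RA, against 5.10, 9.70, 15.4 and 23.8 RPM with BMP2. At day 9 they were 336, 356, 299 and 414 RPM with B2RA, against 19.7, 8.66, 21.9 and 35.7 RPM with BMP2. The groups stayed apart while the BMP2 level was higher at the later days. The changes were 3.15 ± 0.49, 4.51 ± 0.49, 4.86 ± 0.49 and 4.11 ± 0.49 at days 4, 5, 7 and 9 (limma adjusted p between 8.31e-06 at day 4 and 5.13e-13 at day 7). Control libraries had 19.8 ± 14.8 RPM at day 9 (SD, n = 4), within the range with BMP2. Stra8 is on chromosome 6 from base 34920163 to 34939344 (GRCm38).

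Rec8, which encodes a cohesin subunit of meiotic chromosomes, rose from day 7 on. At day 7 it had 148, 170, 150 and 170 RPM with B2RA (E5, then G10), against 34.8, 26.9, 35.2 and 40.3 RPM with BMP2. At day 9 it had 211, 219, 229 and 214 RPM with B2RA, against 44.7, 27.6, 59.3 and 43.4 RPM with BMP2. The B2RA libraries lay close together and above every BMP2 library, with changes of 2.20 ± 0.30 (limma adjusted p = 5.34e-08) and 2.34 ± 0.30 (limma adjusted p = 3.05e-09). At day 5 the change was 1.01 and was not called (limma adjusted p = 0.19).

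Part of the other meiotic prophase genes rose at day 9. The list holds 48 genes, of which 45 were in the table and 25 were tested at day 9. Of those, 6 rose (Stra8, Rec8, Sycp2, Terb2, Tex15 and Msh5), none fell, and the median change was 0.40. Over all genes tested at day 9, 4.52% were called higher and the median change was 0.074. Members not tested reached 10 RPM in fewer than 2 of the 8 libraries of that day, so the count covers detected members only. Sycp2, a component of the synaptonemal complex, had 11.9, 6.09, 27.8 and 11.1 RPM with B2RA (E5, then G10), against 1.29, 4.33, 3.51 and 0.350 RPM with BMP2. The groups did not overlap but the level stayed low (2.18 ± 0.41, limma adjusted p = 4.04e-05). Sycp3, the other lateral element protein, was well detected, with 64.9 ± 23.8 RPM with B2RA and 47.6 ± 9.73 RPM with BMP2, and did not pass the test (0.40 ± 0.36, limma adjusted p = 0.469). Rad21l, a second meiotic cohesin subunit, was read in 1 of the 4 B2RA libraries of day 9, at 0.337 RPM, and in none of the 4 BMP2 libraries. At day 7, 3 members of 19 tested rose (Stra8, Rec8 and Hspa2), beside 3.17% of all genes called. At days 4 and 5 Stra8 was the member called of 16 tested, beside 0.322% and 0.328% of all genes. The calls of Terb2 and Msh5 held in 10 and 8 of 13 alternative settings. Without E5 B2RA replicate 2 the number called at day 9 was again 6, with Syce1 and Meioc in place of Terb2 and Msh5, which were then not tested.

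Many more genes were called at days 7 and 9 than at days 4 and 5. B2RA raised 28 genes and lowered 0 of 8686 tested at day 4 (0.322% called), raised 27 and lowered 2 of 8835 at day 5 (0.328%), raised 202 and lowered 94 of 9333 at day 7 (3.17%, 2.16% higher and 1.01% lower) and raised 446 and lowered 275 of 9874 at day 9 (7.3%). The step between days 7 and 9 depended on the fit: edgeR called 391 genes at day 7 and 366 at day 9, and limma fitted to the compared groups alone called 335 and 314. At day 4 260 genes had an unadjusted p under 0.05 in either direction, and edgeR called 20. All genes called at days 4 and 5 had no overlap between the 4 B2RA and the 4 BMP2 libraries, as had 194 of 202 and 87 of 94 at day 7, and 325 of 446 and 164 of 275 at day 9. Of all genes tested, called or not, 2.31% lay higher without overlap and 2.37% lower at day 4, and 2.78% and 2.24% at day 5. The shares were 8.8% and 7.34% at day 7 and 9.84% and 5.39% at day 9. The share of higher calls at day 9 was 61.9%, and 45.1% (323 higher and 393 lower) with trimmed-mean-of-M (TMM) scaling, under which the median change of all genes at day 9 was -0.051 in place of 0.074. None of the named genes called in the main fit changed sign under TMM scaling. Without E5 B2RA replicate 2 the count of day 9 was 489 (346 higher, 143 lower, 381 of them shared), and without E5 B2RA replicate 1 it was 1204 (544 higher, 660 lower). Without G10 B2RA replicate 2 the count of day 7 was 174, and without G10 BMP2 replicate 1 it was 189. Of the 28 genes of day 4, 18 were among the 27 of day 5 (64.3% and 66.7% of each list), and 126 of the 202 higher genes of day 7 were among the 446 of day 9 (62.4% and 28.3%). No gene called at one day was called in the opposite direction at another.

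**Figure D2:**
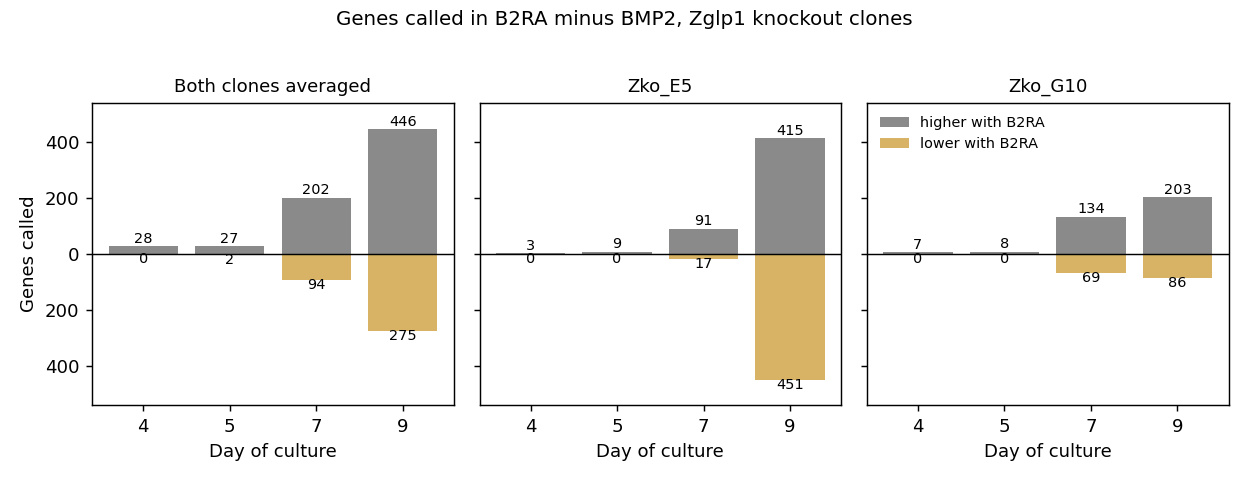
Number of genes called higher (grey, upward) and lower (ochre, downward) with B2RA than with BMP2, by day of culture, for the mean of the clones, for Zko_E5 and for Zko_G10. Counts are small at days 4 and 5 and, in this limma fit over all libraries, largest at day 9, where E5 has 866 and G10 289 calls.

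Genes that rose at all 4 days numbered 13 and none fell at all 4. Besides Stra8, Cyp26a1 and Rarb they included Acp5, Mdk, Bhlha15, Itga3, Dusp9, Baiap2l1, Greb1l, Baz1a and Parva. Part of these calls depended on the setting. The day 4 call of Baz1a held in 5 of 15 alternative settings. Parva was called in 10, 9, 12 and 9 of 15 at days 4, 5, 7 and 9. The calls of Bhlha15 at day 4 and Baiap2l1 at day 9 held in 11 of 15 each. Mdk encodes midkine, a heparin-binding growth factor found as an RA-induced gene. At day 4 it had 382, 455, 447 and 431 RPM with B2RA (E5, then G10), against 98.3, 102, 92.6 and 101.2 RPM with BMP2. At day 9 it had 535, 486, 618 and 791 RPM with B2RA, against 118, 123, 91.7 and 143 RPM with BMP2. Every B2RA library was above every BMP2 library of its day, with changes of 2.11 ± 0.27 at day 4 (limma adjusted p = 3.11e-08) and 2.34 ± 0.27 at day 9 (limma adjusted p = 8.06e-11). Dusp9, a phosphatase that inactivates MAP kinases, averaged 204 ± 64.3 RPM with B2RA and 53.5 ± 31.2 RPM with BMP2 at day 4 (2.07 ± 0.28, limma adjusted p = 6.61e-08). Acp5, an acid phosphatase, averaged 45.9 ± 14.9 RPM with B2RA and 6.00 ± 1.45 RPM with BMP2 at day 9 (2.71 ± 0.38, limma adjusted p = 2.32e-08).

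Other genes rose early and were named by size. At day 4, Fam176b, Aurkc, Zmym3 and Actn2 rose by 1.32 to 1.62. Aurkc, which encodes the Aurora kinase of meiotic cells, averaged 54.9 ± 9.86 RPM with B2RA and 20.3 ± 6.50 RPM with BMP2 (SD, n = 4 each, limma adjusted p = 0.00502), a call lost in 5 of 15 alternative settings, among them without E5 BMP2 replicate 2 (1.23, limma adjusted p = 0.194). Its response of day 9 minus that of day 4 was -1.78 (limma adjusted p = 0.0112), a call that held in 18 of 23 alternative settings. At day 5, Baz1a, a subunit of chromatin remodelling complexes, rose by 1.80 ± 0.27 (limma adjusted p = 2.44e-06), and the integrin gene Itga3 by 1.78 ± 0.34 (limma adjusted p = 0.000552). The falls of day 5 were Gstk1, a glutathione transferase, and Entpd2, an ectonucleotidase, with changes of -1.51 ± 0.32 (limma adjusted p = 0.00296) and -1.42 ± 0.27 (limma adjusted p = 0.000628).

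At day 7 the largest rise after Stra8 was that of Fut4, a fucosyltransferase that can build the SSEA1 carbohydrate, with 41.0 ± 15.3 RPM with B2RA and 1.65 ± 0.755 RPM with BMP2 (SD, n = 4 each, 3.97 ± 0.42, limma adjusted p = 1.51e-12). Fut9, the fucosyltransferase that makes SSEA1 in mouse germ cells, fell at day 7 to 3.24 ± 2.21 RPM with B2RA, against 14.54 ± 1.57 RPM with BMP2 (-2.09, limma adjusted p = 0.000967), and at day 9 to 2.37, 0, 0.604 and 0.337 RPM with B2RA (E5, then G10), against 13.3, 33.6, 3.07 and 17.5 RPM with BMP2 (-3.08 ± 0.46, limma adjusted p = 1.72e-07). Msx1, Prtg, which encodes an immunoglobulin-like membrane protein, and Sct, which encodes secretin, rose by 3.36 ± 0.41, 3.20 ± 0.30 and 2.99 ± 0.50 at day 7. Prtg averaged 65.4 ± 4.97 RPM with B2RA and 7.35 ± 5.14 RPM with BMP2 (limma adjusted p = 5.04e-15). Enpp2, which encodes autotaxin, the enzyme that makes lysophosphatidic acid, had the largest fall of day 7, to 0.883 ± 0.476 RPM with B2RA, against 26.0 ± 7.90 RPM with BMP2 (-3.83 ± 0.47, limma adjusted p = 4.83e-10). The next falls among genes without overlap that averaged 20 RPM or more in the higher group were Lhx1, Lcp1, Pdlim3, Ildr1, Serpinb9b, Dusp4 and Gstk1, between -1.91 and -1.68, of which Serpinb9b kept its call in 7 of 15 alternative settings.

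At day 9 the largest rises after Stra8, among genes without overlap that averaged 20 RPM or more in the higher group, included Hamp, Car7, Msx1, Ebf4, Irx4 and Rhox13, between 2.75 and 3.51. Hamp, which encodes the iron hormone hepcidin and is a BMP target in liver, averaged 32.8 ± 5.61 RPM with B2RA and 2.48 ± 1.86 RPM with BMP2 (SD, n = 4 each, 3.51 ± 0.28, limma adjusted p = 2.05e-18). Rhox13, a homeobox gene of germ cells, averaged 69.4 ± 28.3 RPM with B2RA and 9.30 ± 3.13 RPM with BMP2 (2.75 ± 0.33, limma adjusted p = 1.66e-10). The largest falls by the same rule were Tdgf1, Lefty2, Hsd17b11, Aldh1b1, Lhx1, Pdzk1, Mup6 and Tor3a, between -3.86 and -2.44. Mup6 belongs to a family of near-identical genes, so its reads may be shared with other members. Hsd17b11, a steroid dehydrogenase, fell to 3.83 ± 2.14 RPM with B2RA, against 38.3 ± 10.4 RPM with BMP2 (-3.13 ± 0.30, limma adjusted p = 2.69e-14).

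Germline genes that DNA methylation keeps silent in somatic cells rose in part. Of 28 listed 21 were tested at day 9, with 6 higher (Tuba3b, Taf7l, Tex101, Slc25a31, Sohlh2 and Tuba3a), 0 lower and a median change of 0.60, beside 0.074 over all genes. The share of all genes called higher at that day was 4.52%. Taf7l, a germ cell variant of a general transcription factor subunit, had 35.0, 73.0, 26.0 and 23.9 RPM with B2RA (E5, then G10), against 10.7, 3.79, 5.27 and 1.75 RPM with BMP2. Tex101, which encodes a germ cell surface protein, had 21.3, 40.6, 29.3 and 34.0 RPM with B2RA, against 9.71, 0, 7.46 and 5.95 RPM with BMP2. Both genes were above every BMP2 library in every B2RA library, with changes of 2.71 ± 0.41 (limma adjusted p = 2.91e-07) and 2.65 ± 0.41 (limma adjusted p = 4e-07). Sohlh2, a transcription factor of early oocytes and spermatogonia, averaged 165 ± 5.96 RPM with B2RA and 74.1 ± 20.7 RPM with BMP2 (change 1.19, limma adjusted p = 0.000108). Tuba3a and Tuba3b encode near-identical tubulins whose reads may be shared, and the Tuba3a call was lost without E5 B2RA replicate 2 (0.96, limma adjusted p = 0.114), which left 5, and it held in 6 of 15 alternative settings. Dazl and Ddx4, RNA regulators of the same class, did not pass the test, at 640 ± 80.9 RPM with B2RA and 572 ± 214 RPM with BMP2 for Dazl (limma adjusted p = 0.7) and 82.1 ± 21.4 RPM with B2RA and 111 ± 23.3 RPM with BMP2 for Ddx4 (limma adjusted p = 0.161).

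Part of the genes of the BMP response rose with B2RA beyond their level with BMP2 alone at days 7 and 9. Of 26 listed, 19 were tested at day 7, with 6 higher, 0 lower and a median of 0.62, and 20 at day 9, with 7 higher (Msx1, Smad9, Id1, Hand1, Smad6, Smad7 and Gata2), 0 lower and a median of 0.86. The count of day 7 was 2 without G10 B2RA replicate 2 and 3 without E5 B2RA replicate 2 or G10 BMP2 replicate 1, and that of day 9 was 3 without G10 BMP2 replicate 1. Of all genes tested, 2.16% were called higher at day 7 and 4.52% at day 9. At days 4 and 5 none of the 14 tested was called, beside 0.322% and 0.328% of all genes. With shares that small, the absence of calls does not date the onset. Id1, a direct SMAD target that blocks differentiation factors, had 370, 418, 430 and 518 RPM with B2RA at day 9 (E5, then G10), against 123, 100.7, 138 and 197 RPM with BMP2, and 10.9 ± 2.97 RPM in control libraries (SD, n = 4). Msx1, a homeobox target of BMP, had 50.8, 26.4, 67.3 and 45.1 RPM with B2RA at day 9, against 6.47, 1.62, 4.83 and 6.30 RPM with BMP2, and 0.775 ± 0.720 RPM in control libraries. In both genes BMP2 libraries were above the control mean and B2RA libraries above every BMP2 library, with changes of 1.66 ± 0.41 (limma adjusted p = 0.00174) and 3.10 ± 0.41 (limma adjusted p = 4.73e-09). Smad9, a receptor-activated SMAD of the BMP branch, averaged 15.0 ± 1.85 RPM with B2RA and 2.43 ± 1.19 RPM with BMP2 (change 2.29, limma adjusted p = 1.72e-07). Smad6 encodes an inhibitory SMAD and averaged 77.3 ± 9.98 RPM with B2RA and 32.6 ± 16.4 RPM with BMP2 (change 1.33, limma adjusted p = 0.00204). The calls of Smad7, another inhibitory SMAD, and Gata2 were lost without E5 B2RA replicate 2 (0.83, limma adjusted p = 0.14, and 1.02, limma adjusted p = 0.109), which left 5, and they held in 7 and 5 of 15 alternative settings.

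The summed level of the mesoderm and endoderm markers T, Mixl1, Gata6, Sox17, Hand1 and Afp was higher with B2RA at day 9, in part through Hand1. The wider list of such genes held 1 call in each direction. The sum was 51.7 to 132 RPM with B2RA and 19.3 to 42.4 RPM with BMP2 at day 9, and 29.3 to 70.8 RPM with B2RA and 9.64 to 30.1 RPM with BMP2 at day 7. Less Hand1, the groups overlapped at day 9. In E5 replicate 1 the sum was 58.2 RPM with B2RA, 39.3 RPM of it Hand1, and 42.4 RPM with BMP2, 11.01 RPM of it Hand1. Of 26 mesoderm, endoderm and primitive streak genes listed, 4 were tested at day 9. Hand1 rose, Lhx1 fell (-2.76, limma adjusted p = 9.38e-06), and Gata4 (0.58, limma adjusted p = 0.397) and Gata6 (1.11, limma adjusted p = 0.118) were not called. Among the summed markers and Foxf1, which is not in the sum, Hand1 and Gata6 were read in all 32 libraries. Hand1, itself on the BMP list, had 39.3, 13.2, 58.9 and 103 RPM with B2RA at day 9 (E5, then G10), against 11.01, 12.4, 13.2 and 15.7 RPM with BMP2. The Hand1 groups overlapped (1.63 ± 0.52, limma adjusted p = 0.0181), and its call was lost without E5 B2RA replicate 1 (1.26), G10 BMP2 replicate 1 (1.57) or G10 B2RA replicate 2 (1.44). T, the defining gene of the primitive streak, was at 0 in 29 of the 32 libraries. The part of such cells in these results was not tested, and in bulk libraries fewer cells of a type and less RNA per cell cannot be told apart.

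Early germ cell genes fell at day 9. Of 23 listed 21 were tested, with 0 higher, 8 lower (Fut9, Tcl1, Hesx1, Ifitm1, Pecam1, Prdm14, Prdm1 and Dnd1) and a median change of -0.65. Over all genes tested 2.79% were lower and the median was 0.074. At day 7 Fut9 and Tcl1 were the members called of 20 tested, beside 1.01% of all genes lower. Tcl1, a coactivator of the kinase AKT, had 46.4, 24.3, 55.6 and 32.3 RPM with B2RA at day 9 (E5, then G10), against 182, 149, 180 and 176 RPM with BMP2. Every B2RA library was below every BMP2 library (-2.15 ± 0.29, limma adjusted p = 1.2e-08), and control libraries held 178 ± 20.49 RPM (SD, n = 4). Ifitm1, an interferon-induced membrane protein gene of early germ cells, had 466, 366, 590 and 450 RPM with B2RA, against 1316, 1360, 1666 and 1120 RPM with BMP2 (-1.55 ± 0.34, limma adjusted p = 0.00059). Prdm14, a repressor needed for germ cell specification, averaged 28.8 ± 12.3 RPM with B2RA and 68.7 ± 17.3 RPM with BMP2 (change -1.30, limma adjusted p = 0.0019). Prdm1, which drove the reporter of the first sort, fell by 1.05, a call that was lost without E5 B2RA replicate 2 (-0.85, limma adjusted p = 0.0569) and left 7. Dppa3, which drove the reporter of the second sort, was at 596 to 799 RPM with B2RA and 1053 to 1384 RPM with BMP2, with a change of -0.88 that was below the size called.

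Pluripotency genes fell by day 9 as well. Of 26 listed 25 were tested, with 11 lower (Tdgf1, Lefty2, Tdh, Fgf4, Pou5f1, Fbxo15, Klf5, Nanog, Utf1, Sox2 and Nodal), 1 higher (Tbx3) and a median change of -0.96. Over all genes tested 2.79% were lower and 4.52% higher, with a median of 0.074. Tdgf1, a co-receptor for Nodal, had 3.95, 0, 5.74 and 6.396 RPM with B2RA (E5, then G10), against 48.9, 57.9, 57.1 and 62.6 RPM with BMP2. Lefty2, an inhibitor and target of Nodal, had 0.790, 1.01, 9.06 and 14.48 RPM with B2RA, against 22.7, 20.6, 78.6 and 104 RPM with BMP2. No B2RA library reached the lowest BMP2 library in either gene, with changes of -3.86 ± 0.46 (limma adjusted p = 1.66e-10) and -3.22 ± 0.47 (limma adjusted p = 1.22e-07). Tdh, which encodes threonine dehydrogenase, the enzyme that mouse stem cells use to feed one-carbon metabolism, had 47.7, 20.3, 110 and 78.8 RPM with B2RA, against 261, 225, 332 and 329 RPM with BMP2 (-2.37 ± 0.23, limma adjusted p = 3.34e-14). Pou5f1, which encodes OCT4, had 114, 76.1, 208 and 127 RPM with B2RA, against 294, 402, 381 and 345 RPM with BMP2 (-1.51 ± 0.33, limma adjusted p = 0.000403). The levels with B2RA were lower but not gone in either clone. Nodal (-1.02) and Sox2 (-1.07) lost their calls without E5 B2RA replicate 2 (-0.31, limma adjusted p = 0.602, and -0.99, limma adjusted p = 0.0335), while Lefty1 and Zfp42 were called lower without that library, which again made 11. Otx2, a factor of primed pluripotency and forebrain in the neural list, had no read in any of the 4 B2RA libraries of day 9, against 8.42, 18.9, 6.58 and 13.3 RPM with BMP2 (limma adjusted p = 3.58e-10). With a floor of 3 reads over the B2RA group it was at least 43.5-fold lower with B2RA than with BMP2, a bound that covers counting error only.

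**Figure D3:**
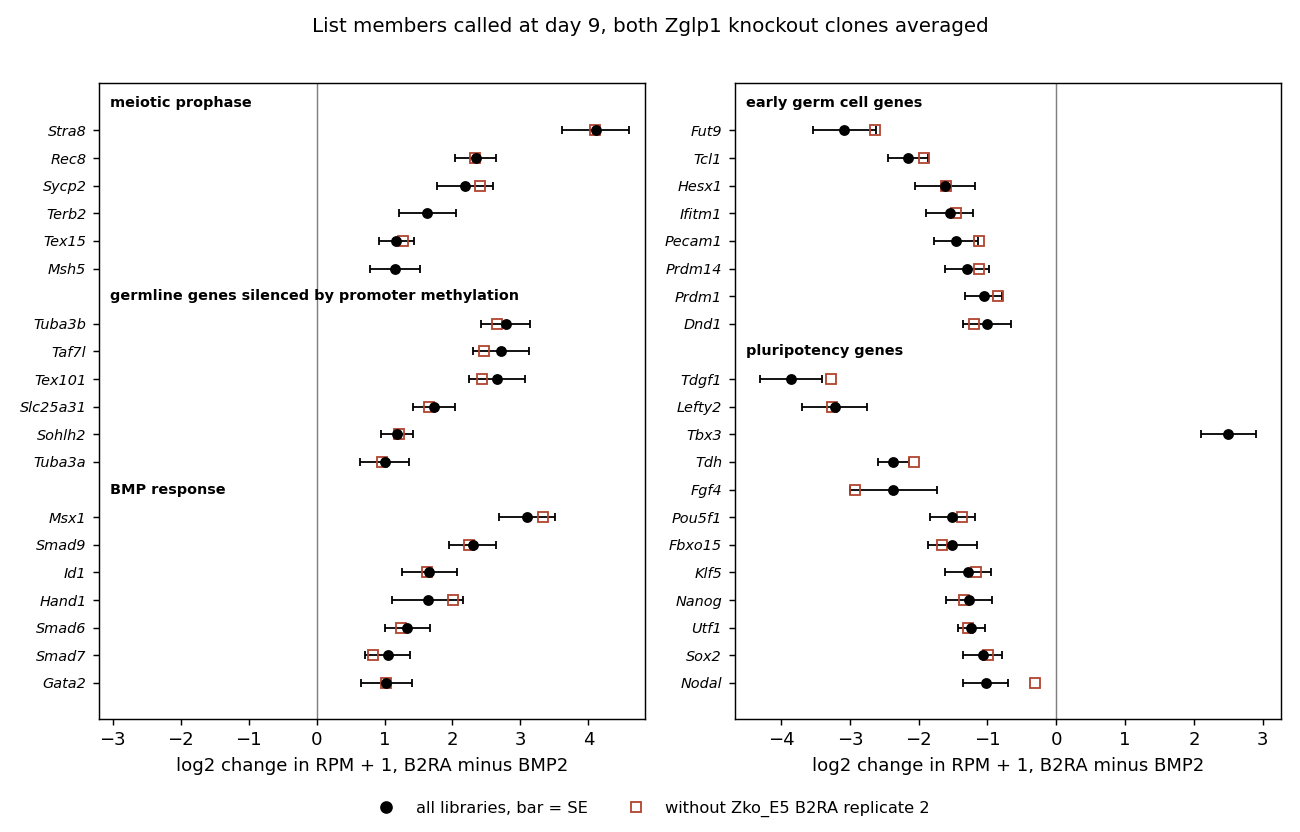
Change in log2(RPM + 1), B2RA minus BMP2 at day 9, of the called members of 5 gene lists. Black points with bars are the estimate and SE over all libraries, and open red squares are estimates without Zko_E5 B2RA replicate 2, absent where the gene was then not tested. Members of the 3 lists on the left lie above 0 and those of the 2 on the right below it except Tbx3, and Nodal is the member that moves most when the library is left out.

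Part of the glycolysis genes and G1 regulators changed at day 9, while several other metabolic, cell cycle and chromatin lists held no call. Of 23 glycolysis genes tested at day 9, 5 fell (Aldoc, Ldhb, Pdk1, Pfkfb3 and Pfkp) and none rose, with a median of -0.36, beside 2.79% of all genes lower, and without E5 B2RA replicate 2 the number was 3. Ldhb, a lactate dehydrogenase subunit, had 205, 122, 133 and 152 RPM with B2RA (E5, then G10), against 386, 499, 334 and 377 RPM with BMP2 (-1.39 ± 0.22, limma adjusted p = 5.95e-07). Trp53, which encodes p53, averaged 29.6 ± 15.6 RPM with B2RA and 123 ± 71.0 RPM with BMP2, and Pmaip1, which encodes the apoptosis factor NOXA, 5.11 ± 3.87 RPM with B2RA and 27.1 ± 11.7 RPM with BMP2 (changes -2.04, limma adjusted p = 0.000397, and -2.35, limma adjusted p = 1.68e-05). They were the 2 called of 21 tested in the p53 list, a share near the 7.3% of all genes called. In the list of DNA methylation genes Mbd2, a reader of methylated DNA, rose (1.41, limma adjusted p = 0.000639) and Tet1, a dioxygenase that oxidises methylcytosine, fell (-1.40, limma adjusted p = 0.00382), of 15 tested. Cdkn2c, an inhibitor of the G1 kinases, averaged 11.8 ± 1.16 RPM with B2RA and 2.20 ± 1.63 RPM with BMP2 (change 2.21, limma adjusted p = 0.000124) and was 1 of 3 G1 regulators called higher of 15 tested, with Cdkn2d and Mxd4, beside 4.52% of all genes higher. The Cdkn2d and Mxd4 calls held in 8 and 7 of 15 alternative settings, and without G10 B2RA replicate 2 the count was 1. None of 24 G2 and M phase genes, 26 DNA replication genes, 23 cholesterol synthesis genes or 21 Polycomb genes tested at day 9 was called in the main fit. Leaving out 1 library could give lower calls in the DNA replication, cholesterol synthesis and Polycomb lists, but not in the G2 and M phase list.

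The time course was tested as the response of day 9 minus that of day 4. It was called in 212 of 10121 genes (2.09%), 125 toward a higher and 87 toward a lower response. This split depended on the fit, and 150 of 224 were lower (74 higher) with TMM scaling. By edgeR 14 were higher and 95 lower, and in a fit to the compared groups alone 22 were higher and 57 lower. Msx1 (3.60 ± 0.58, limma adjusted p = 2.51e-05), Irx4, Car7, Hamp, Tex101 and Rhox13 had the largest gains, down to 2.58. Cyp26a1 (-3.18), Tdgf1 (-3.12), Etv4, Fut9, Igsf21 and Nphs1 (-2.68) had the largest losses. The call was 98 (60 higher, 38 lower) without E5 B2RA replicate 2 and 757 without E5 B2RA replicate 1 of day 9.

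The clones were then taken apart. In E5, B2RA changed 3 genes at day 4 (0.036%), 9 at day 5 (0.108%), 108 at day 7 (1.21%) and 866 at day 9 (9.31%, 415 higher and 451 lower). In G10 it changed 7 (0.0845%), 8 (0.0938%), 203 (2.28%) and 289 (3.09%, 203 higher and 86 lower). The difference of the responses, E5 minus G10, was called in 0 genes (0.0%) at days 4, 5 and 7 by limma, with 25, 23 and 435 genes at an unadjusted p under 0.05, and in 97 of 9874 genes at day 9 (0.982%, 12 higher and 85 lower). On recovered whole reads edgeR called 0 differences at days 4 and 5, 195 at day 7 and 0 at day 9. Without E5 B2RA replicate 2 the count of day 9 was 0, and that of E5 alone was 30. Without E5 B2RA replicate 1 it was 1108. It was also lower without E5 BMP2 replicate 2 (4), G10 BMP2 replicate 2 (9), G10 B2RA replicate 2 (14) and G10 B2RA replicate 1 (27). No gene was called in opposite directions in the clones at any day, and at day 9 the 70 genes called higher in both were 16.9% of those of E5 and 34.5% of those of G10. With TMM scaling the splits of day 9 were 262 higher and 591 lower in E5, 137 higher and 145 lower in G10, and 67 higher and 36 lower in E5 at day 7 in place of 91 and 17. Cyp26a1, Rarb, Stra8, Rec8 and Mdk were not among the genes whose response differed between the clones.

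The response of the knockout clones was set against that of H18, as knockout minus H18. None of 9216 genes differed at day 5 by limma (0.0%), though 470 had an unadjusted p under 0.05 (edgeR called 0), 3 of 10021 differed at day 7 (0.0299%), and 894 of 10675 at day 9 (8.37%, 465 higher for 4.36% and 429 lower for 4.02%). With TMM scaling the split at day 9 was 328 higher and 540 lower. The count of day 9 was 114 without H18 BMP2 replicate 2, 290 without H18 B2RA replicate 1, 630 without E5 B2RA replicate 2 and 1393 and 1398 without H18 BMP2 replicate 1 and E5 B2RA replicate 1. At day 7 it was 284 without H18 B2RA replicate 1. H18 had 2 libraries a group, and its B2RA pairs of days 7 and 9 were uneven. At day 7 the log2 values of the pair correlated at 0.81. The germ cell markers summed to 2850 RPM in replicate 1 and 993 RPM in replicate 2. H18 B2RA replicate 1 of day 9 had a summed level of gonadal soma markers of 150 RPM, against 36.5 RPM in replicate 2.

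Cyp26a1 and several other retinoid genes responded less in the knockout clones than in H18, while the differences of Rarb, Mdk, Msx1 and Stra8 did not pass the test. Cyp26a1 at day 9 had 14.48 to 26.3 RPM with B2RA in the knockout clones and 2.63 to 10.7 RPM with BMP2. In H18 it had 149 and 388 RPM with B2RA and no read with BMP2, at least 606-fold higher with a floor of 3 reads over the BMP2 group. Knockout B2RA libraries lay below both H18 B2RA libraries, and knockout BMP2 libraries above both H18 BMP2 libraries. The difference of the responses was -6.49 ± 0.76 (limma adjusted p = 5.97e-10), called without each of the libraries E5 B2RA replicate 2, H18 B2RA replicate 1 and H18 BMP2 replicate 2, and it was already called at day 7 (-5.04 ± 0.76, limma adjusted p = 8.06e-06), though not in a fit to the compared groups alone or by edgeR. Cyp26b1, the other RA-degrading enzyme tested, differed by -3.21 (limma adjusted p = 0.0032, called in 15 of 17 alternative settings). Dhrs3 differed by -2.51 (limma adjusted p = 0.0269, called in 12 of 19), and Fabp5, a fatty acid-binding protein that can also carry RA, by -2.36 (limma adjusted p = 0.0074, called in 15 of 19). Without H18 B2RA replicate 1 neither was called (-2.85, limma adjusted p = 0.0608, and -1.21, limma adjusted p = 0.325). In the list of receptors, binding proteins and cofactors Nr2c2, an orphan nuclear receptor, was also lower (-1.05, limma adjusted p = 0.0177), and the nuclear receptor cofactor Ncoa2 was higher (1.101, limma adjusted p = 0.0326). The calls of Nr2c2 and Ncoa2 held in 10 of 19 alternative settings each and not without H18 B2RA replicate 1 (-0.76, limma adjusted p = 0.215, and 0.88, limma adjusted p = 0.222). The difference was -0.25 ± 0.79 for Rarb (limma adjusted p = 0.882), -0.00 ± 0.47 for Mdk (limma adjusted p = 0.999), 0.24 ± 0.71 for Msx1 (limma adjusted p = 0.871) and 1.92 ± 0.85 for Stra8 (limma adjusted p = 0.141). A p that misses the threshold does not show that these genes respond alike in both.

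Stra8 at day 9 had 299 to 414 RPM with B2RA in the knockout clones, against 8.66 to 35.7 RPM with BMP2, and in H18 it had 658 and 805 RPM with B2RA, against 146 and 172 RPM with BMP2. Both knockout groups were below the H18 group of the same treatment. Rec8 at day 9 had 138 and 321 RPM with B2RA in H18, against 166 and 126 RPM with BMP2, and its response was larger in the knockout (1.81 ± 0.53, limma adjusted p = 0.0172), a call lost without H18 B2RA replicate 1 (1.2, limma adjusted p = 0.26), H18 BMP2 replicate 1 (1.61, limma adjusted p = 0.0607) or H18 BMP2 replicate 2 (2.01, limma adjusted p = 0.0769).

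Many meiotic prophase genes rose with B2RA in H18, and the response of 11 of them was lower in the knockout clones. In H18 32 of 44 tested members rose at day 9 and none fell, beside 9.05% of all 9594 genes higher and 6.98% lower. The difference of the responses had a median of -1.09 over the 44 and was called lower in 11 (Meiosin, Rad21l, Hormad2, Top6bl, Prdm9, Meiob, Tex15, Msh4, Shoc1, Terb1 and Ccnb3) and higher in Rec8. The number lower was 0 without H18 BMP2 replicate 2, 5 without H18 B2RA replicate 1 and 25 without H18 BMP2 replicate 1. Shoc1 differed by -1.91 by limma and by 0.73 by edgeR. Over all genes, 429 differences were called lower in the main fit, against 18 by edgeR and 10 in a fit to the compared groups alone. The lower calls of this list therefore depend on the fit. Rad21l, near absent from the knockout clones, had 196 and 185 RPM with B2RA in H18, against 71.4 and 9.19 RPM with BMP2. Meiob, a factor of meiotic recombination, had 11.3, 0, 8.76 and 3.03 RPM with B2RA in the knockout (E5, then G10), against 12.3, 12.99, 5.27 and 6.996 RPM with BMP2. In H18 Meiob had 207 and 168 RPM with B2RA, against 86.3 and 17.6 RPM with BMP2. The difference was -3.28 ± 0.75 for Meiob (limma adjusted p = 0.00205) and -2.71 ± 0.59 for Rad21l (limma adjusted p = 0.00111). H18 BMP2 replicate 1 was well above replicate 2 in these genes, and without replicate 2 neither kept its call (-2.17, limma adjusted p = 0.2, and -1.30, limma adjusted p = 0.326). Sycp3 differed by -1.75 ± 0.63 and was not called (limma adjusted p = 0.0587).

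Part of the early germ cell and pluripotency genes fell less in the knockout clones than in H18. Of 22 early germ cell genes tested, 11 had a higher difference, as had 11 of 25 pluripotency genes, beside 4.36% of all genes. In H18 alone 15 of 18 tested early germ cell genes fell at day 9, beside 6.98% of all genes. The higher early germ cell genes numbered 1 without H18 B2RA replicate 1, 2 without H18 BMP2 replicate 2 and 7 without E5 B2RA replicate 1, and the pluripotency genes 6 without either of these H18 libraries. Pou5f1 had 76.1 to 208 RPM with B2RA in the knockout clones, against 294 to 402 RPM with BMP2, and in H18 6.84 and 10.4 RPM with B2RA, against 146 and 295 RPM with BMP2. The lowest knockout B2RA library was above both H18 B2RA libraries, and the difference of 2.95 ± 0.56 (limma adjusted p = 0.000205) was called without each of the same 3 libraries. Dppa3, the sort reporter gene, averaged 80.0 ± 34.9 RPM with B2RA in H18 and 904 ± 137 RPM with BMP2 (SD, n = 2 each), with a change of -3.54, against -0.88 in the knockout, and since both lines were sorted on its reporter this is given as a level only.

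**Figure D4:**
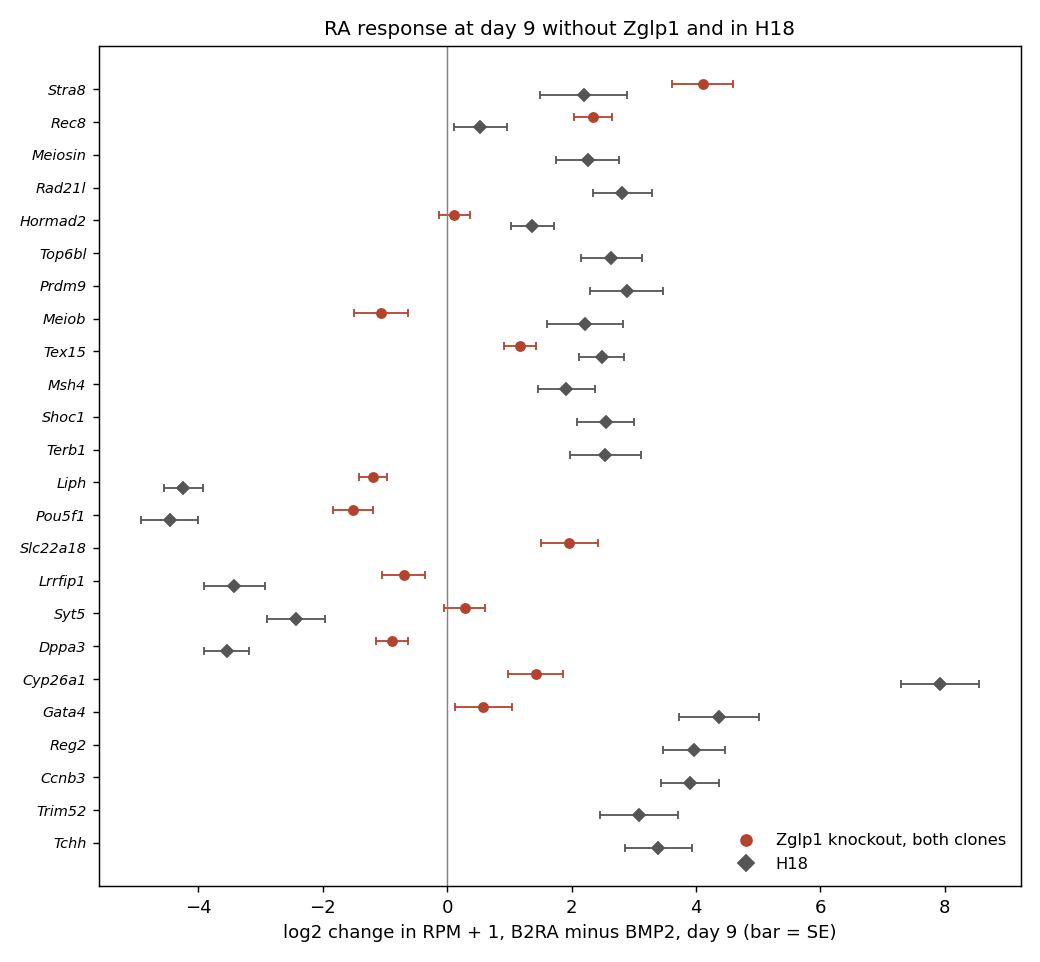
Change in log2(RPM + 1), B2RA minus BMP2 at day 9, in Zglp1 knockout clones (red circles) and in H18 (grey diamonds), with SE as bars. Genes run from Stra8 and the meiotic members whose response differed to the largest differences by rule, and a symbol is absent where the gene was below the level tested in that line. Cyp26a1 is near 1.43 in the knockout and near 7.92 in H18, while Liph, Pou5f1, Lrrfip1 and Dppa3 fall further in H18.

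The cell type labelled is PGCLC, and germ cell markers were present throughout. The 8 germ cell markers summed to 1608 to 2996 RPM over the 32 libraries, each of them read in all. Feeder and stroma markers summed to 501 to 1367 RPM, 690 to 1077 RPM with B2RA and 900 to 1367 RPM with BMP2 at day 9. Fn1, which fell with B2RA at day 9, had the highest median of them over the 32 libraries (472 RPM), and Sparc the highest single value (703 RPM). Gonadal soma markers summed to 24.5 to 51.3 RPM with B2RA and 8.78 to 32.05 RPM with BMP2 at day 9, with Gata4 at up to 44.1 RPM, Amh at 0 in all 32 libraries and Foxl2 at 0 in 27. Endothelium and blood markers stayed at or under 3.15 RPM, and neural markers between 0 and 75.8 RPM. The part of these cells in the results was not tested.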

How the data were processed

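Transcript 3′ ends of sorted PGCLCs were counted, and the authors deposited the values as RPM, read numbers scaled to an equal total of reads on endogenous genes, in a table of 25706 endogenous and 3 transgene rows. The submitters' processing notes name build mm10, HTSeq 0.9.1, SAMtools 1.3, TopHat2 2.1.0, Bowtie 1.1.2 and cutadapt 1.9.1, with no roles. The annotation and the use of molecular identifiers or strand are not given in the sources used here. Of 195 value columns, 194 were matched to a label, 1 was not used, and 2 labelled samples had no matched column. In 3 lines an extra empty cell was removed and the values realigned. Columns whose total the transgene rows lift above that of the others were treated as signal on the same deposited scale.

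Limma 3.58.1 in R 4.3.3 was fitted to log2(RPM + 1) of 191 PGCLC libraries in 98 groups, with trended, robust empirical Bayes. Genes with 10 RPM or more in a minimum of 2 compared libraries were tested. Calls needed an adjusted p under 0.05 and a change of at least 1. The fit was tested on simulated data. Low values were whole multiples of the value of 1 read in 100% of entries (tolerance 0.05), so reads were recovered, and edgeR 4.0.16 on them was an alternative. It called 20, 34, 391 and 366 genes at days 4, 5, 7 and 9. In the 32 libraries 1 read was worth 0.192 to 1.01 RPM. Floors of 3 reads cover counting error only.

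Genes were named by rule: per day the 8 largest changes in each direction among genes whose higher group averaged 20 RPM or more and whose groups did not overlap, up to 10 genes called at all 4 days, and the 6 largest in each direction for differences. Some genes of the rule and the lists are not reported here. Members and lists were chosen with earlier results of these data known. Of 629 list members, 626 were in the table. Other settings tried were pseudocounts 0.5 and 5, no filter, TMM scaling, a replicate block, the compared groups alone, edgeR, and leaving out each library. The lists without E5 B2RA replicate 2 of day 9 were added after the data had been seen.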

Additional observations from a re-analysis of the deposited data

Results flagged for a closer look

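In 4 of 104 sets of 4 libraries 1 library stood apart from its group by Dixon's test, and chance marks about 1 in 20 sets. With BMP2, G10 replicate 1 was the highest of day 4 for Stra8 (2.7554 RPM), the highest of day 7 for Rarb (1.3765 RPM) and the lowest of day 9 for Bhlha15 (1.7556 RPM). With B2RA, E5 replicate 2 had the fewest detected genes of day 9 (11850).

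The response at day 9 differed between the clones (E5 minus G10, limma) by 2.758 for Kif21a, 2.241 for Tmem106a, 2.0 for Parp16, 1.866 for Tab3, 1.611 for Asb3 and 1.499 for Stx17. It differed by -3.934 for S100g, -3.519 for Dcdc2c, -3.487 for Ppp1r15a, -3.115 for Cep97, -3.078 for Tob1 and -3.075 for Nup98. None of these was called without E5 B2RA replicate 2 of day 9, since no gene was.

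The response of day 9 minus that of day 4 was 3.602 for Msx1, 3.18 for Irx4, 3.116 for Car7, 3.112 for Hamp, 2.665 for Tex101 and 2.578 for Rhox13. It was -3.178 for Cyp26a1, -3.12 for Tdgf1, -2.868 for Etv4, -2.803 for Fut9, -2.798 for Igsf21 and -2.683 for Nphs1.

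The knockout response minus that of H18 at day 7 was -5.036 for Cyp26a1 and -2.663 for Nxf2. At day 9 it was 3.049 for Liph, 2.95 for Pou5f1, 2.769 for Slc22a18, 2.727 for Lrrfip1, 2.716 for Syt5 and 2.66 for Dppa3, whose reporter served in the sort. It was -6.492 for Cyp26a1, -3.788 for Gata4, -3.754 for Reg2, -3.748 for Ccnb3, -3.575 for Trim52 and -3.518 for Tchh.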

How the results depend on the processing

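Counts of calls moved by over 1.5 times as follows, and the cause was not tested. With edgeR the RA response had 366 calls at day 9, E5 alone 14 at day 5, 221 at day 7 and 31 at day 9, and G10 alone 3 at day 4, 3 at day 5 and 563 at day 7. EdgeR also gave 195 clone differences at day 7 and 0 at day 9, 109 differences between days, and 0 and 87 differences from H18 at days 7 and 9. With only the groups compared in the fit, the RA response had 15 calls at day 4 and 314 at day 9, E5 14, 193 and 33 at days 5, 7 and 9, and G10 3, 31 and 484 at days 4, 5 and 7. That fit gave 102 clone differences at day 7 and 0 at day 9, 79 differences between days, and 0 and 85 differences from H18 at days 7 and 9. With no filter, which tests more genes, the RA response had 503 calls at day 7 and 1296 at day 9, E5 13, 190 and 1679 at days 4, 7 and 9, and G10 15 and 654 at days 4 and 9. It gave 2 and 355 clone differences at days 5 and 9 and 10 and 45 differences from H18 at days 5 and 7. With a pseudocount of 5 there were 184 and 352 RA calls at days 7 and 9, 8 in E5 at day 4, 51 clone differences at day 9 and 11 differences from H18 at day 7. A pseudocount of 0.5 and TMM scaling moved no count by that much. Shoc1 reversed, from -1.91 by limma to 0.73 by edgeR for knockout minus H18 at day 9.

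Replicate numbers were not taken as pairing the libraries. Deviations of B2RA and BMP2 libraries of 1 number correlated at 0.14 to 0.49 in the 6 sets of days 4, 5 and 7, but at 0.06 in E5 and -0.16 in G10 at day 9. With the replicate block E5 had 11 calls at day 4, and the block changed no other count by over 1.5 times. No named gene called in the main fit lost its call with the block, and named genes not called there were not followed.

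Leaving out 1 library at a time gave 16 to 24, 16 to 30, 174 to 276 and 489 to 1204 RA calls at days 4, 5, 7 and 9. E5 alone had 0 to 3, 1 to 5, 10 to 48 and 30 to 1496, and G10 alone 1 to 4, 0 to 4, 4 to 185 and 38 to 232. Clone differences numbered 0 to 0 at days 4, 5 and 7 and 0 to 1108 at day 9, differences between days 98 to 757, and differences from H18 0 to 1, 2 to 284 and 114 to 1398 at days 5, 7 and 9. Where 1 library is left in a group it is assumed to vary like the other groups. The level tested, 10 RPM, leaves low genes out, and each group holds 2 libraries a clone.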

Other observations

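Uhrf1, which recruits the maintenance DNA methyltransferase, averaged 21.3 ± 3.77 RPM with B2RA and 2.87 ± 0.578 RPM with BMP2 at day 7 (SD, n = 4 each, change 2.52, limma adjusted p = 0.000434). It was the member called of 26 DNA replication genes tested at that day, a share near the 3.17% of all genes called. The simple-epithelium keratins Krt8 and Krt18 rose at day 9, by 1.81 and 1.33, and the Krt8 call was lost without E5 B2RA replicate 2 (1.57, limma adjusted p = 0.054). Inha, an inhibin subunit, and the signalling gene Wnt4 rose by 1.71 and 2.06 at day 9. They were the 2 called of 4 gonadal soma genes tested, beside 4.52% of all genes higher.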
